A study of Mus musculus with 11 samples.

Results

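The potassium channel genes are the rows of the deposited table whose symbol starts with Kcn and a lower-case letter, without Kcnj10, Kcnj13 and symbols ending in os. This gave 83 of 22377 listed genes. Of these, 80 code for protein and 3 are non-coding antisense transcripts that the rule also takes in (Kcnq1ot1, Kcnmb4os1 and Kcnmb4os2). They were read in whole hippocampus of male C57BL/6N mice with CAGE, cap analysis of gene expression, a method that counts reads at the capped 5′ end of transcripts, in a study of cortical stroke and the antiseizure drug levetiracetam (LEV). Stroke was made by photothrombosis (PT), in which the dye rose bengal (35 mg/kg) was lit at 565 nm for 30 min over a circle of 3.5 mm on the left parietal cortex. LEV was given at 5 mg/mL in drinking water.

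The groups were PT 7 d with and without LEV, PT 1 m with and without LEV, and mice at 2 m after PT from which LEV had been withdrawn (PT 2 m LEV withdrawn), each with 1 library of the infarcted and 1 of the non-infarcted side, and 1 library of naive mice, 11 in all. The labels give 2 w of withdrawal, whereas the series text describes LEV for 2 weeks followed by 1 week without it, and the dosing days of the PT 7 d LEV mice are not given. Mice of 8 to 10 weeks and of 65 to 85 weeks are named for the series, and which age a library holds is not given. Nor is it given how many mice a library holds, or whether both sides come from the same mice, so the spread between libraries may be partly technical.

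Potassium channels let potassium leave a neuron, which brings the membrane back toward rest after a spike and sets how readily the cell fires. Voltage-gated families (Kcna to Kcnd, Kcnh, Kcnq) shape single spikes and trains. Inward rectifiers (Kcnj) and two-pore leak channels (Kcnk) hold the resting potential. Channels gated by calcium or sodium (Kcnm, Kcnn, Kcnt) follow activity, and beta and silent subunits (Kcnab, Kcne, Kcnip, Kcnmb, Kcnf, Kcng, Kcns, Kcnv) tune the pore subunits. Mutations of several of these genes cause epilepsy in humans. Such channels act in nearly all hippocampal neurons, and a few are best known from glia, vessels or the choroid plexus.

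Library totals were between 13382623 and 22377376 reads, of which 93.01% to 96.08% lay in listed genes, and 3 reads were worth 0.134 to 0.224 CPM (reads scaled to a fixed library total). Summed markers of the choroid plexus, the epithelium of the ventricles that can be dissected with the hippocampus, came to 53.2 CPM for the library PT 1 m infarcted and to 102 CPM for PT 1 m LEV non-infarcted, against 1250 to 4780 CPM in the other 9 libraries. Summed microglia markers were 343 to 728 CPM and reactive astrocyte markers 301 to 810 CPM, both highest in PT 7 d infarcted. Markers of hippocampal neurons summed to 2478 to 3724 CPM. In whole tissue, fewer cells of a type and less RNA per cell cannot be told apart.

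Potassium channel genes were measured at very different levels, and most were clearly above the counting floor. On the CPM scale, 25 genes averaged over 50 CPM, 27 lay between 10 and 50 CPM and 22 between 1 and 10 CPM. The remaining 9 were under 1 CPM and were not tested. These were Kcne3, Kcnj5, Kcnj14, Kcnj15, Kcnk5, Kcnmb4os1, Kcnn4, Kcnq1 and Kcns1, and Kcnj15 had no read in any library. A CAGE read marks 1 transcript start, so levels were not divided by transcript length.

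Kcnab2, which encodes a cytoplasmic beta subunit of Shaker-type channels, was the highest at 549.9 CPM on average (range 382 to 703 CPM). The fast-firing channel Kcnc1, Kcnma1 (the pore of the BK channel), Kcnj3 (a G-protein-gated inward rectifier) and Kcnip2 (a calcium-binding partner of Shal-type channels) averaged 116, 108, 107 and 102 CPM. The ranges of these 4 genes overlapped throughout, and Kcnab2 lay above all other members in every library.

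Summed by subfamily, the 3 Kcnab genes held 19.0% of all potassium channel reads, with 621.5 CPM on average. The inward rectifiers summed to 367 CPM, the Kcnc genes to 364 CPM, the Kcnip genes to 291 CPM and the Kcna genes to 269.5 CPM. All members together summed to between 3074 and 3544 CPM per library, lowest in PT 7 d LEV infarcted and highest in naive.

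**Figure D1:**
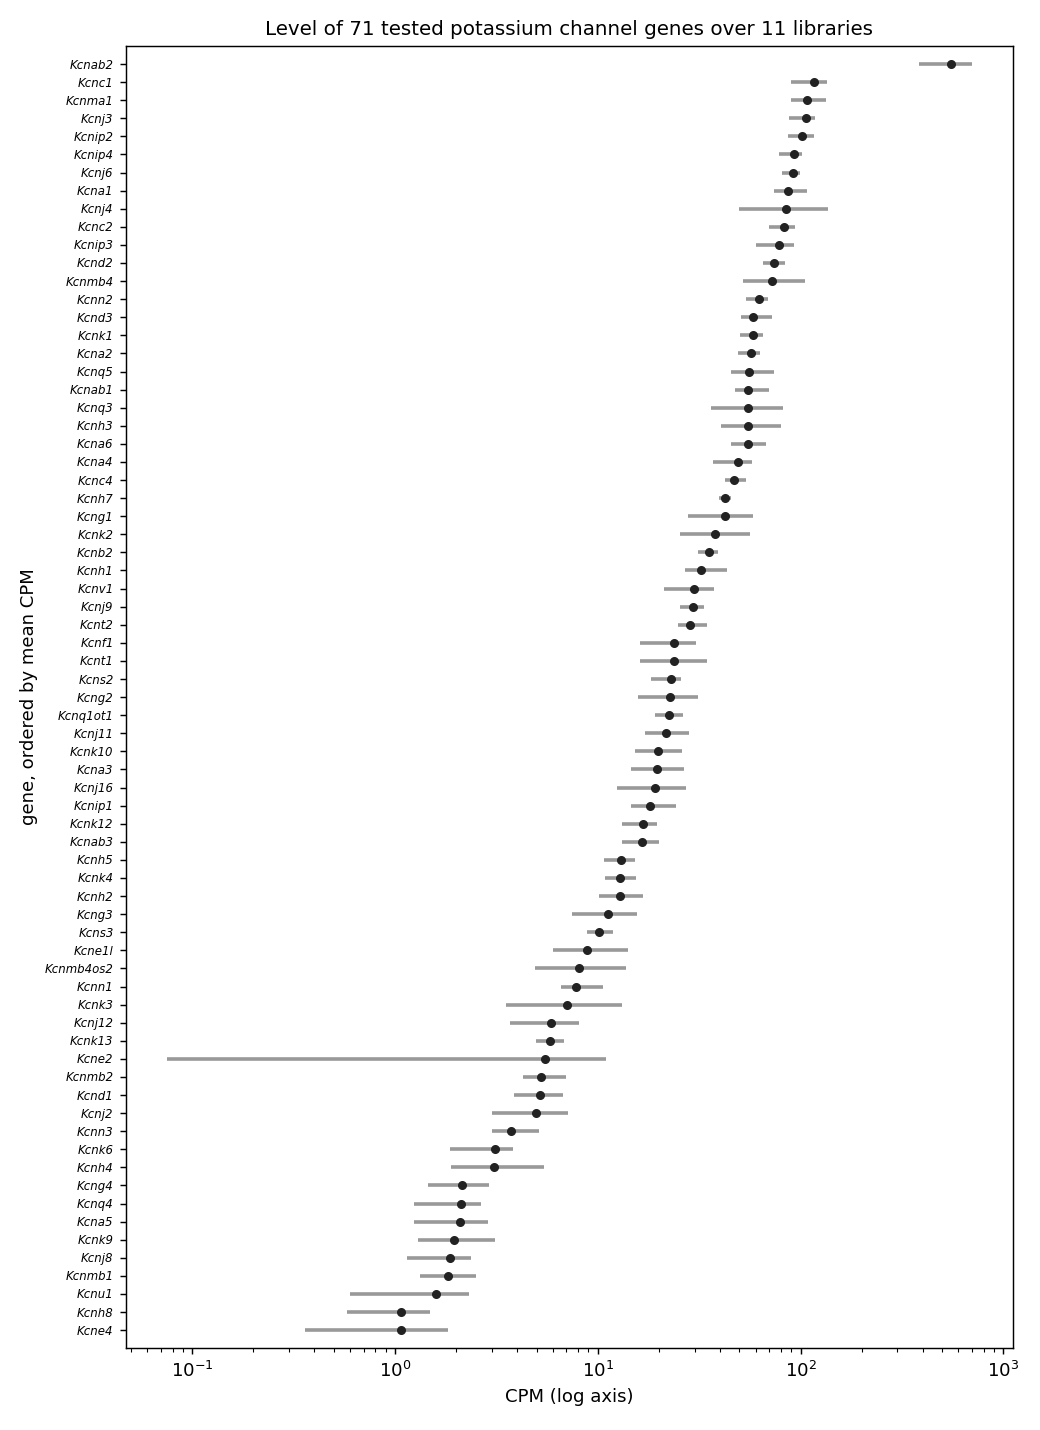
Mean CPM of 71 tested potassium channel genes (points) with the lowest and highest of 11 libraries (lines), on a log axis. Kcnab2 stood highest at 549.9 CPM, and Kcne2 had the widest range, with 0.0747 CPM at its lowest and 10.9 CPM at its highest.

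All calls among potassium channel genes in the 5 tests run with limma on CPM as deposited lay between 1 m and 7 d after PT. At 1 m, 13 of the 74 tested genes were higher and 2 were lower than at 7 d (limma, adjusted p under 0.05, over the means of both sides in 4 conditions). Over all 16057 tested genes, 5.7% were called higher and 10.1% lower, against 17.6% higher and 2.7% lower of the potassium channel genes. Thus the members' calls ran mostly upward while those of all genes ran mostly downward. The median difference of the members was 0.12 on the log2(CPM + 1) scale, against -0.06 for all genes, and 67.6% of members were above 0, against 40.8% of all genes.

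The split of calls depended on the scaling. Among all called genes 36.1% were higher at 1 m with CPM as deposited, 52.6% with TMM scaling and 50.7% with quantile scaling. The members' median stayed above that of all genes, at 0.17 against -0.01 with TMM and 0.18 against -0.00 with quantile scaling. With TMM scaling 4 members were called, among them Kcnj4 and Kcnk3 higher and Kcne2 lower, and with quantile scaling 16 were, 14 higher and 2 lower.

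The test of time had 4 condition means and 1 residual degree of freedom, so its errors rest mostly on the spread shared by all genes. Calls of 7 members, Kcne2, Kcnj4, Kcnk3, Kcnmb4os2, Kcnq3 and Kcnt1 among them, were kept without each of the 8 libraries in turn, and these 7 were also called by edgeR and DESeq2 on the recovered reads. The other 8 (Kcna3, Kcnab2, Kcng1, Kcng2, Kcnip3, Kcnj2, Kcnj12 and Kcnmb4) all lost their call without PT 1 m infarcted, and 6 of them also without another library. Of these 8, edgeR called Kcng1, Kcng2, Kcnip3 and Kcnj12, DESeq2 called Kcng1, Kcnip3 and Kcnmb4, and neither called Kcna3, Kcnab2 or Kcnj2.

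Cell type markers moved with time as well. At 1 m, 3 of 6 interneuron markers were called higher (median 0.40), 3 of 5 reactive astrocyte and 2 of 6 microglia markers were called lower (medians -0.51 and -0.19), and 1 of 4 hippocampal neuron markers was called higher (median 0.10). Of 4 CA1 pyramidal cell markers 1 was called higher (median 0.19), and of 4 dentate granule cell markers 1 was called lower (median -0.01). Of the 2 tested blood markers 1 was called higher (median 0.54). No marker of oligodendrocytes or of neocortex, thalamus and striatum was called. The part of all these cell types in the member differences was not tested.

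Kcnq3, a subunit of the channel of the M-current, which damps repetitive firing, rose at 1 m. It lies on GRCm38 chr15:65986387-66286642. Kcnq3 had 60.4 and 60.5 CPM in PT 1 m (infarcted, then non-infarcted side) and 81.5 and 75.9 CPM in PT 1 m LEV, against 41.5 and 46.2 CPM in PT 7 d and 44.2 and 42.3 CPM in PT 7 d LEV. The groups did not overlap. Averages were 69.6 ± 10.8 CPM at 1 m, against 43.5 ± 2.07 CPM at 7 d (SD over 4 libraries, n = 4 each), a log2 difference of 0.65 (SE 0.13, limma adjusted p = 0.00117). Naive had 74.6 CPM, and PT 2 m LEV withdrawn had 36.3 and 42.4 CPM. Kcnq5, also of the M-current, averaged 58.0 ± 4.76 CPM at 1 m and 53.6 CPM with an SD of 3.998 at 7 d (log2 difference 0.11, limma adjusted p = 0.572), and its groups overlapped.

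The strong inward rectifiers of the Kir2 class pass potassium near rest and stabilise the resting potential. All 3 that were tested, Kcnj4, Kcnj12 and Kcnj2, rose at 1 m, and Kcnj14, the remaining Kir2 gene, stayed between 0.283 and 0.949 CPM and was not tested. Kcnj4, the most abundant of them, had 109, 80.1, 131 and 119.8 CPM at 1 m in the same order of libraries, against 53.9, 58.2, 69.6 and 49.5 CPM at 7 d. Every 1 m library was above every 7 d library, and the difference was 0.91 (SE 0.12, limma adjusted p = 2.72e-05). Kcnj12 averaged 7.56 ± 0.653 CPM at 1 m and 4.63 ± 0.628 CPM at 7 d (log2 difference 0.61, SE 0.15, limma adjusted p = 0.00955, and 0.0614 without PT 1 m infarcted).

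Kcnj2 averaged 6.14 ± 0.941 CPM at 1 m and 3.65 ± 0.835 CPM at 7 d, with a difference of 0.63 (SE 0.16, limma adjusted p = 0.00975). Its adjusted p was 0.0672 without PT 1 m infarcted and 0.118 without PT 7 d LEV non-infarcted. The neighbouring gene on chromosome 11, Kcnj16, encodes a glial inward rectifier subunit and ran the other way without passing, with 15.9 ± 2.54 CPM at 1 m, against 19.8 ± 1.73 CPM at 7 d (limma adjusted p = 0.118). None of the tested G-protein-gated (Kcnj3, Kcnj6, Kcnj9) or ATP-sensitive (Kcnj8, Kcnj11) inward rectifiers passed, and Kcnj5, also G-protein-gated, was too low to test.

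Among the two-pore leak channels 1 of 9 tested genes passed. Kcnk3, the acid-sensitive leak channel TASK-1, had 11.7, 6.53, 11.4 and 9.16 CPM at 1 m, against 4.57, 4.55, 3.54 and 3.84 CPM at 7 d. The groups did not overlap, and the difference of 1.04 (SE 0.16, limma adjusted p = 0.000111) was the largest rise among the members. These values rest on 91 to 205 reads per library at 1 m and 68 to 80 reads at 7 d. The more abundant Kcnk1 averaged 57.99 CPM over all libraries and stayed between 50.3 and 65.5 CPM.

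Of the BK channel genes, which encode the large-conductance channel opened by calcium and voltage, the neuronal beta subunit Kcnmb4 rose. It had 73.6, 71.4, 105 and 95.1 CPM at 1 m, against 61.1, 64.5, 56.0 and 60.1 CPM at 7 d (log2 difference 0.49, SE 0.13, limma adjusted p = 0.0142). Both PT 1 m LEV libraries lay above both PT 1 m libraries, and all 4 lay above those of 7 d. Its call was lost without PT 1 m infarcted (limma adjusted p = 0.0759) and without PT 7 d LEV non-infarcted (limma adjusted p = 0.0608).

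Kcnmb4os2 lies antisense to the start of Kcnmb4, overlapping it on chromosome 10 (Kcnmb4os2 from 116473163 to 116475319 on the plus strand, Kcnmb4 from 116417861 to 116473878 on the minus strand). It averaged 10.9 ± 2.47 CPM at 1 m and 5.94 ± 0.785 CPM at 7 d, with a difference of 0.76 (SE 0.15, limma adjusted p = 0.00155). Whether strand was used when reads were given to genes is not stated, so the reads of this pair may not be separate. The pore gene Kcnma1 averaged 119 ± 16.0 CPM at 1 m and 98.6 ± 2.86 CPM at 7 d and did not pass (limma adjusted p = 0.153).

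The sodium-activated channel gene Kcnt1, mutated in severe infantile epilepsies in humans, had 28.2, 25.3, 34.5 and 30.9 CPM at 1 m, against 17.4, 17.9, 24.4 and 20.2 CPM at 7 d. The groups did not overlap (log2 difference 0.55, SE 0.13, limma adjusted p = 0.00515). Its relative Kcnt2 averaged 30.8 ± 3.80 CPM at 1 m and 26.9 ± 2.26 CPM at 7 d and did not pass (limma adjusted p = 0.343).

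Among silent subunits, which form no channel alone and modify Shab-type channels, Kcng1 and Kcng2 rose, 2 of 8 tested. Kcng1 averaged 52.7 ± 4.97 CPM at 1 m and 38.1 ± 3.21 CPM at 7 d (log2 difference 0.46, SE 0.12, limma adjusted p = 0.0125, and 0.0641 without PT 1 m infarcted). Kcng2 averaged 25.4 ± 2.49 CPM at 1 m and 18.9 ± 2.18 CPM at 7 d (log2 difference 0.41, limma adjusted p = 0.0314). Its call was lost without PT 1 m infarcted, PT 1 m LEV non-infarcted, PT 7 d infarcted or PT 7 d LEV non-infarcted (limma adjusted p of up to 0.119).

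In the A-type group, Kcnip3, a calcium-binding partner of Shal-type channels that is also known as a transcriptional repressor, averaged 86.9 ± 7.31 CPM at 1 m and 66.1 ± 7.05 CPM at 7 d (log2 difference 0.39, SE 0.12, limma adjusted p = 0.0258). Without PT 1 m infarcted, PT 1 m LEV non-infarcted, PT 7 d non-infarcted or PT 7 d LEV infarcted it did not pass (limma adjusted p of up to 0.0819). The 3 Kcnd pore genes did not pass. Of the Shaker-type genes, Kcna3, known from T cells and microglia as well as from neurons, averaged 22.6 ± 3.32 CPM at 1 m and 16.7 ± 1.35 CPM at 7 d (log2 difference 0.41, SE 0.13, limma adjusted p = 0.0361). Its call was lost without PT 1 m infarcted, PT 1 m LEV infarcted, PT 7 d non-infarcted, PT 7 d LEV infarcted or PT 7 d LEV non-infarcted, with adjusted p of up to 0.173.

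Just outside the threshold lay the A-type Shaker gene Kcna4 (log2 difference 0.36, limma adjusted p = 0.0511), the silent subunit Kcnv1 (0.35, limma adjusted p = 0.0576) and Kcnip1 (0.37, limma adjusted p = 0.0622). Just inside lay Kcna3 and Kcnab2. Kcnv1 was called with quantile scaling.

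Both genes that fell at 1 m encode auxiliary subunits. Kcnab2 had 452, 513, 382 and 485 CPM at 1 m, against 611, 657, 552 and 615 CPM at 7 d (log2 difference -0.41, SE 0.13, limma adjusted p = 0.0345). The groups did not overlap, but the call was lost without PT 1 m infarcted, PT 1 m LEV infarcted, PT 7 d non-infarcted or PT 7 d LEV non-infarcted (limma adjusted p of up to 0.116) and in edgeR (adjusted p = 0.137) and DESeq2 (adjusted p = 0.166). Naive had 469 CPM, within the range of the 1 m libraries, and PT 2 m LEV withdrawn had 611 and 703 CPM.

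Kcne2 encodes a single-pass beta subunit found at the apical face of the choroid plexus. It had 0.0747, 3.52, 4.53 and 0.223 CPM at 1 m (1, 49, 72 and 5 reads), against 8.17, 6.91, 10.9 and 9.21 CPM at 7 d. The difference was -2.02 (SE 0.16, limma adjusted p = 1.48e-08). Its lowest libraries, which were PT 1 m infarcted together with PT 1 m LEV non-infarcted, are those in which summed choroid plexus markers were 53.2 and 102 CPM, and all 6 choroid plexus markers were called lower at 1 m. Without these libraries the Kcne2 difference was -0.96 (limma adjusted p = 0.00201), with marker sums of 1420 and 1771 CPM in the remaining 1 m libraries against 3129 to 4780 CPM at 7 d. The part of choroid plexus tissue in the Kcne2 difference was not tested further.

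**Figure D2:**
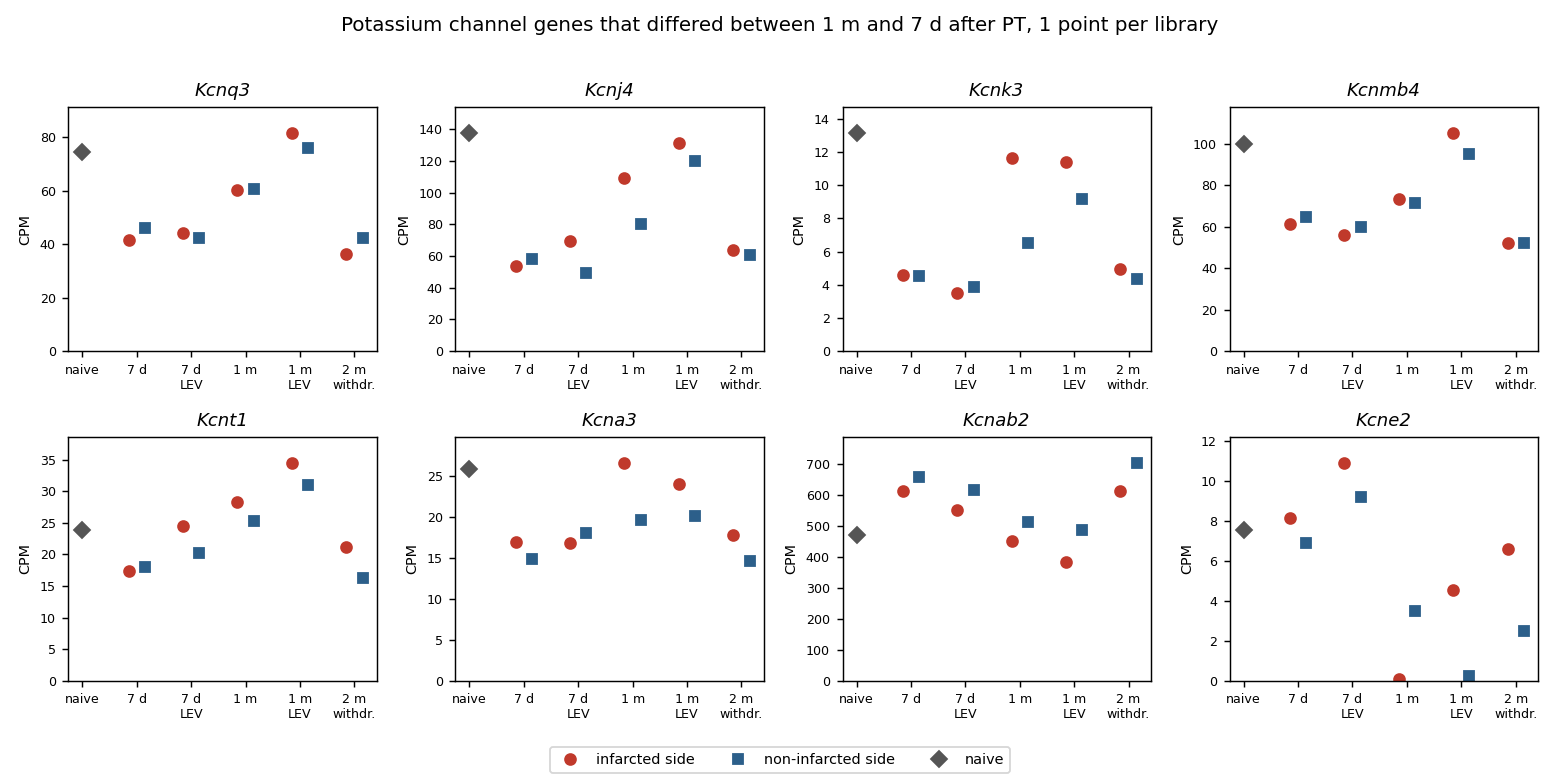
CPM of 8 potassium channel genes that differed between 1 m and 7 d after PT, with 1 point per library (circles infarcted side, squares non-infarcted side, diamond naive). For Kcnq3, Kcnj4, Kcnk3, Kcnmb4 and Kcna3 the naive and 1 m libraries lay above those of 7 d and 2 m, for Kcnab2 below them, for Kcnt1 those of 1 m lay above all others, and Kcne2 was nearly absent from PT 1 m infarcted at 0.0747 CPM and PT 1 m LEV non-infarcted at 0.223 CPM.

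The 1 m and naive libraries stood together for many members, as did those of 7 d and 2 m. For 12 members, among them Kcna3, Kcnc2, Kcng2, Kcnip1, Kcnj2, Kcnj4, Kcnj12, Kcnk3, Kcnmb4 and Kcnq3, all 5 naive and 1 m libraries were above all 6 libraries of 7 d and 2 m, as held for 6.81% of all tested genes. For Kcnab2, Kcnip4 and Kcnmb2 all 5 were below, as held for 11.9%. Of the 15 called members 14 had a mean at 2 m nearer to 7 d than to 1 m, and of all 2534 called genes 83.6% did. Time after PT and any processing batch that parts these libraries in the same way cannot be told apart, since the labels give no batch. Between 1 m and 7 d alone, 19 members had groups that did not overlap with 1 m higher (10.8% of all genes) and 7 with 1 m lower (19.1% of all genes).

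Sequence before the start was read for the called genes and the other members. The 200 bases before the start were taken from RefSeq promoter windows (GRCm38.p6), which matched 59 of the 83 members and 9 of the 15 called ones. They were searched on both strands for GGGCGG (the GC box), TGACG (the core of the cAMP response element) and TATAAA (the TATA box), none of which contains another. The GC box was found in 77.8% of the 9 called members, in 44.0% of the other 50 members and in 31.1% of all 32843 windows. TGACG was in 33.3%, 16.0% and 15.7%, and TATAAA in none of the 9, in 2.0% and in 9.96% of the windows of these sets. The median G and C content was 60% in the called members, 60% in the other members and 53% in all windows. These are letter matches in a fixed window and not sites shown to be bound. Each member was given 1 window, the nearest to the start of its GENCODE M21 gene model, whereas all 32843 windows cover 27020 symbols. For some members the nearest window was far from that start, at 43240 bases for the called Kcnj12 and 239248 bases for Kcnip4.

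The windows of Kcnj4, Kcnj2 and Kcna3, which rose, are shown against that of Kcne2, which fell. They are on the gene's own strand, 5′ to 3′, and capitals mark GGGCGG or its reverse complement. The first is on chr15:79505242-79505441 (minus strand), the second on chr11:111065964-111066163 (plus), the third on chr3:107035962-107036161 (plus) and the fourth on chr16:92292189-92292388 (plus).
Kcnj4: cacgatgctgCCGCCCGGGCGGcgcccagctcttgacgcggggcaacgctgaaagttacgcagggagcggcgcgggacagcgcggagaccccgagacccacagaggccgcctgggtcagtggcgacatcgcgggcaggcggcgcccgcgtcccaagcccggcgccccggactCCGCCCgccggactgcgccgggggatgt
Kcnj2: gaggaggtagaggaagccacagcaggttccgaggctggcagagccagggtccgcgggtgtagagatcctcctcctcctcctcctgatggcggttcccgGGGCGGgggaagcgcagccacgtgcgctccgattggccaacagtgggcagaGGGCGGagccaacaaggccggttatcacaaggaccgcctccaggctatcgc
Kcna3: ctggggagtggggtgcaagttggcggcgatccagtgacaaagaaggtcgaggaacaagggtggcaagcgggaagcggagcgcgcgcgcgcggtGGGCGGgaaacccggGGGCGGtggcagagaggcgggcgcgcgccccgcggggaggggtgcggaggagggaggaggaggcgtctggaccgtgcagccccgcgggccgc
Kcne2: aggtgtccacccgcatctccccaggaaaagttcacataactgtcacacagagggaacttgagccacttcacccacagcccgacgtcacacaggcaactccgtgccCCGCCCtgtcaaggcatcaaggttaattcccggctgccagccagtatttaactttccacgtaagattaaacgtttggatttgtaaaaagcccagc

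The window of Kcnj4 holds 3 matches at 76.5% G and C, that of Kcnj2 2 matches at 66.5%, that of Kcna3 2 matches at 75.0% and that of Kcne2 1 match at 52.0%. These 4 do not stand for all called members. The window of Kcnab2, which also fell, holds a match at 58.5% G and C. Of the others that rose, those of Kcnmb4 and Kcnmb4os2 hold a match and those of Kcnip3 and Kcnj12 hold none. The windows of Kcnj4, Kcnj2 and Kcne2 end at the start of the GENCODE M21 gene model, and that of Kcna3 ends 7 bases away from it.

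Between the sides, no potassium channel gene passed the test. With the 10 PT libraries paired by condition, limma called 0 members and 0 of all genes, with 9 members (7 higher and 2 lower on the infarcted side) and 1217 genes, 7.58%, at an unadjusted p under 0.05. edgeR called 0 genes, and DESeq2 called 15 genes, of which Kcnab2 was the only member. The smallest adjusted p among members was 0.416. The median difference of the members was 0.02, as was that of all genes, and 44 of 74 members were above 0 with CPM as deposited, 32 with TMM and 30 with quantile scaling.

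Kcnab2 was lower on the infarcted side in 5 of 5 conditions. It had 611, 552, 452, 382 and 611 CPM on the infarcted side at 7 d, 7 d LEV, 1 m, 1 m LEV and 2 m, against 657, 615, 513, 485 and 703 CPM on the non-infarcted side. The mean was 521 ± 101 CPM on the infarcted side and 594 ± 93.2 CPM on the non-infarcted side (SD, n = 5 each), a log2 difference of -0.20 (SE 0.05). Its adjusted p was 0.416 in limma, 0.283 in edgeR and 0.000867 in DESeq2. The difference within each condition was between -0.34 and -0.10.

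Kcnh2, the erg-type channel with slow resurgent currents, was higher on the infarcted side in 5 of 5 conditions. It had 12.1, 14.3, 14.8, 15.3 and 12.6 CPM on the infarcted side in that order, against 10.4, 10.4, 11.7, 13.2 and 10.1 CPM on the non-infarcted side (log2 difference 0.28, SE 0.07, limma adjusted p = 0.416). Kcnj2 was likewise higher in 5 of 5, at 5.46 ± 1.43 CPM on the infarcted side and 4.18 ± 1.16 CPM on the non-infarcted side (limma adjusted p = 0.429), as was Kcne4 at 1.44 ± 0.445 and 0.775 ± 0.258 CPM (limma adjusted p = 0.416). The Kcne4 values rest on 5 to 35 reads per library. Among all genes 5.26% were higher in all 5 conditions. In these pairs all 6 microglia and all 5 reactive astrocyte markers were above 0 on the infarcted side, with medians of 0.32 and 0.51. The same held for all 8 markers of neocortex, thalamus and striatum and all 6 of the choroid plexus, with medians of 0.23 and 0.30. None of these markers passed, and their part in the member differences was not tested.

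The G-protein-gated inward rectifier genes Kcnj3 and Kcnj6 and the two-pore channel gene Kcnk12 were lower on the infarcted side in 5 of 5 conditions without passing. Kcnj3 averaged 103 ± 10.3 CPM on the infarcted side and 112 ± 7.70 CPM on the non-infarcted side (log2 difference -0.13, limma adjusted p = 0.532). Among all genes 2.71% were lower in all 5 conditions. No member had sides whose libraries did not overlap, as 0.212% of all genes did with the infarcted side higher and 0.0498% with it lower.

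**Figure D3:**
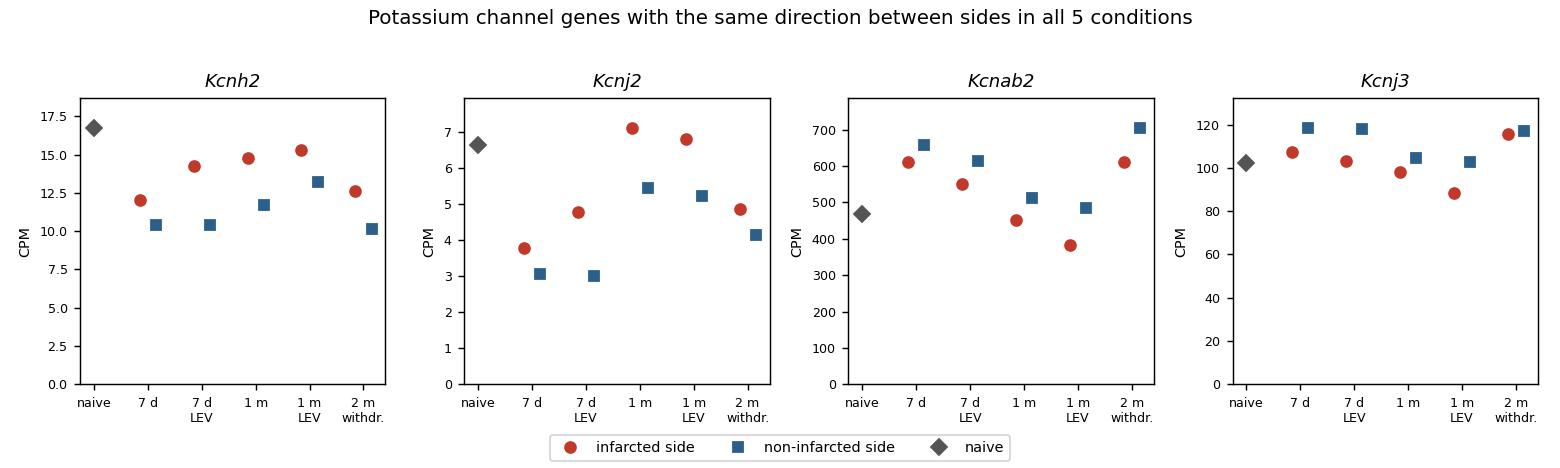
CPM of 4 potassium channel genes whose sides differed in the same direction in all 5 PT conditions, with 1 point per library. Circles (infarcted) lie above squares (non-infarcted) for Kcnh2 and Kcnj2 and below them for Kcnab2 and Kcnj3, within ranges that overlap between conditions.

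The side difference was also set between times and between LEV and no LEV over the 4 conditions of 7 d and 1 m. No member passed either test, with 6 members at an unadjusted p under 0.05 for time (6.61% of all genes) and 5 for LEV (6.03%). For time, limma called 0 of all genes, with 1062 at an unadjusted p under 0.05. The smallest p for time was that of the beta subunit gene Kcne1l, at -0.77 (SE 0.25, limma adjusted p = 0.58), with 6.501 and 12.1 CPM on the infarcted side at 1 m and 1 m LEV, against 9.33 and 9.52 CPM on the non-infarcted side, and with 14.1 and 9.42 CPM on the infarcted side at 7 d and 7 d LEV, against 7.60 and 5.99 CPM on the non-infarcted side. For LEV, limma called 29 of all genes (0.181%), all higher and none a member. Kcne2 had 2.13 (limma adjusted p = 0.746) and was lowest in the same libraries as the choroid plexus markers.

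With LEV, no potassium channel gene passed. limma called 3 of 16057 genes, 0.0187%, with 2 higher (0.0125%), 1 lower (0.00623%) and no member. Unadjusted p was under 0.05 for 3 members, 4.05% of those tested, against 6.05% of all genes, counted in either direction. All 3 were higher with LEV, namely the silent subunit Kcnv1, the sodium-activated channel Kcnt1 and the Shaker-type gene Kcna5. All 6 microglia, all 5 reactive astrocyte and all 4 dentate granule cell markers were below 0 with LEV (medians -0.20, -0.22 and -0.25), and none passed. The 2 tested blood markers were below 0 as well (median -0.78), and 1 of them was called lower. All 6 choroid plexus markers and 7 of 8 of neocortex, thalamus and striatum were above 0 (medians 0.27 and 0.15), and none passed. The part of these markers' cell types in the member differences was not tested. The median difference of the members was 0.02, against -0.02 for all genes, and 41 of 74 members were above 0.

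Kcnv1 had 28.2, 30.1, 37.4 and 34.5 CPM with LEV (7 d infarcted, 7 d non-infarcted, 1 m infarcted, 1 m non-infarcted), against 22.6, 21.2, 31.3 and 27.8 CPM without LEV. It was higher with LEV in 4 of 4 pairs, and the groups overlapped across times. The mean was 32.5 ± 4.15 CPM with LEV and 25.8 ± 4.67 CPM without (log2 difference 0.33, SE 0.12, limma adjusted p = 0.75). Withdrawn libraries had 37.2 and 31.2 CPM of Kcnv1, against 37.4 and 34.5 CPM in PT 1 m LEV, and naive had 25.3 CPM.

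Kcnt1 averaged 27.5 ± 6.40 CPM with LEV and 22.2 ± 5.38 CPM without (log2 difference 0.30, SE 0.13, limma adjusted p = 0.81), and Kcnt2 31.4 ± 3.02 CPM with and 26.3 ± 1.70 CPM without (0.25, limma adjusted p = 0.822). Both sodium-activated channel genes were higher with LEV in 4 of 4 pairs. Kcna5 was the only member whose LEV libraries, from 2.29 to 2.88 CPM, all lay above those without LEV, from 1.25 to 1.87 CPM. Such a split held for 1.51% of all genes, and its log2 difference for Kcna5 was 0.43 (SE 0.18, limma adjusted p = 0.81). The Kcna5 values rest on 37 to 54 reads per library with LEV and 20 to 26 reads without.

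In all, 10 members were higher with LEV in 4 of 4 pairs (Kcna5, Kcng1, Kcng3, Kcnip1, Kcnip2, Kcnj11, Kcnk12, Kcnt1, Kcnt2 and Kcnv1), as were 8.65% of all genes. The ATP-sensitive channel pore Kcnj11 averaged 24.4 ± 3.39 CPM with LEV and 20.6 ± 2.00 CPM without (limma adjusted p = 0.838), and Kcnip1 19.9 ± 4.45 CPM with and 16.7 ± 1.74 CPM without (limma adjusted p = 0.839). A further 6 were lower in 4 of 4 pairs (Kcnab2, Kcnh8, Kcnj3, Kcnj6, Kcnj16 and Kcnmb1), as were 12.4% of all genes. Kcnj16 averaged 16.4 ± 3.29 CPM with LEV and 19.3 ± 1.74 CPM without (log2 difference -0.24, SE 0.13, limma adjusted p = 0.822).

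The LEV difference ran in opposite directions at the 2 times for 12 members. Kcna1, Kcna6, Kcne1l, Kcnmb4 and Kcns2 were lower with LEV at 7 d and higher at 1 m on both sides, as held for 6.76% of the members and 6.52% of all genes. Kcnc1, Kcnh4, Kcnh5, Kcnj9, Kcnk4, Kcnk10 and Kcnq1ot1 were higher with LEV at 7 d and lower at 1 m on both sides, as held for 9.46% of the members and 9.85% of all genes. Both shares were near those of all genes. The difference between times was not tested, since the condition means leave no error for it.

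**Figure D4:**
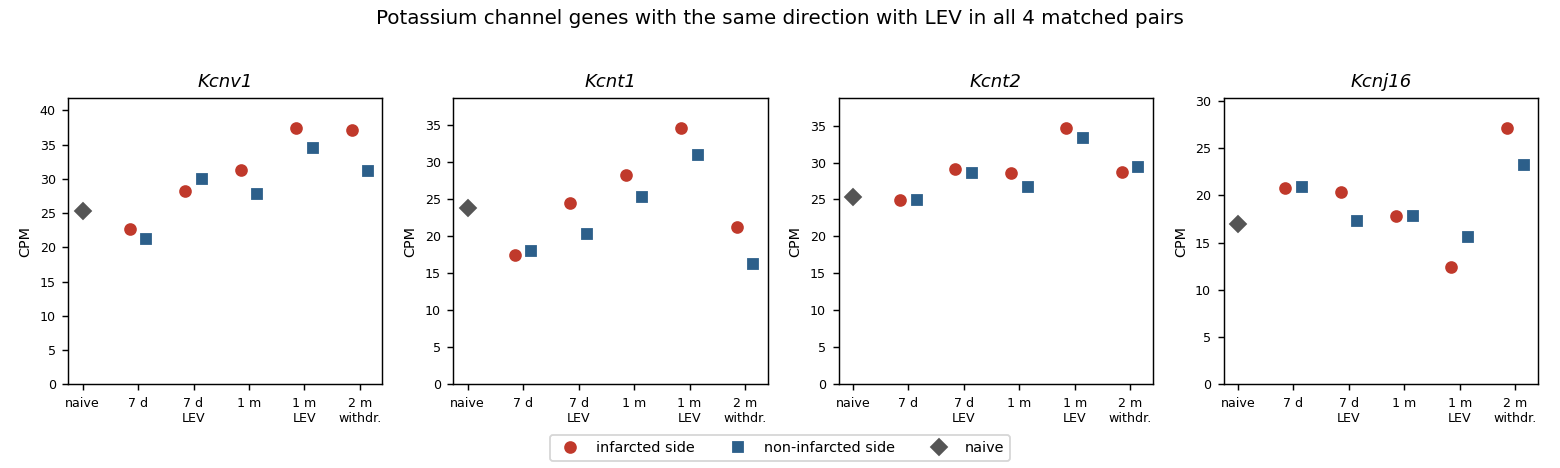
CPM of 4 potassium channel genes that differed with LEV in the same direction in all 4 matched pairs of side and time, with 1 point per library. Kcnv1, Kcnt1 and Kcnt2 were higher in each LEV library than in its counterpart without LEV, and Kcnj16 was lower, and none of them passed the test.

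After withdrawal at 2 m, set against PT 1 m LEV, no member differed by a log2 of 1 on both sides, as 1.2% of all genes did with 2 m higher and 1.77% with 2 m lower. This comparison was not tested, and both libraries of a condition may come from the same mice. Withdrawal of LEV and time after PT changed together in it, so their parts cannot be told apart. Near this mark were Kcnj4, at -1.04 on the infarcted and -0.98 on the non-infarcted side, and Kcnk3 at -1.06 and -0.93. Of 74 tested members 37 were lower on both sides and 22 higher on both. Among all genes 32.6% were lower on both sides and 50.01% higher on both. The median of the members was -0.08, against 0.11 for all genes.

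Against the single naive library, which all these comparisons share, no member was higher by a log2 of 1 on both sides in any PT condition. Among all genes 0.237% were at 7 d, 0.212% at 7 d with LEV, 0.00623% at 1 m, 0.237% at 1 m with LEV and 0.504% at 2 m. At 7 d, Kcnj4 (-1.33 infarcted, -1.22 non-infarcted) and Kcnk3 (-1.34 and -1.35) were lower by that much, as were 0.766% of all genes. At 7 d with LEV, Kcnk3 (-1.64 and -1.55) was among 2 members that were, and 0.71% of all genes were. No member passed this mark at PT 1 m or PT 1 m LEV, where 0.255% and 0.199% of all genes were lower. At 2 m after withdrawal, Kcnj4 (-1.10 and -1.17) and Kcnk3 (-1.25 and -1.41) were among 3 members that were lower, as were 1.63% of all genes. Without replicates of naive these are differences from 1 library.

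Some genes known from human epilepsy were taken as a list of 10 members, among them Kcna1, Kcna2, Kcnc1, Kcnd2, Kcnh5, Kcnma1, Kcnq3 and Kcnt1. The list was picked by hand with earlier results of these data known and is not complete. At 1 m against 7 d, 3 of these 10 were called higher, Kcnq3 and Kcnt1 included, and none lower. Among tested members 17.6% were called higher and 2.7% lower, and among all genes 5.7% and 10.1%. The median of the list was 0.19, against -0.06 for all genes. None passed for side or for LEV, with medians of 0.02 and 0.08. Members best known from glia, immune cells, vessels or epithelia were another list, of which 7 of 8 were tested. At 1 m against 7 d Kcna3 rose and Kcne2 fell, and the median was -0.26. Between the sides 6 of these 7 were above 0 on the infarcted side, with a median of 0.10, and none passed.

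Channel partners and genes of potassium handling outside the Kcn symbols were a list of 39 genes, 35 of them tested. At 1 m against 7 d, 3 rose and 5 fell, with a median of -0.12, against -0.06 for all genes. Of all genes 5.7% were called higher and 10.1% lower. Among those that rose were Adam22, a receptor of LGI1 at Kv1 complexes (170 ± 21.7 CPM at 1 m and 126 ± 7.74 CPM at 7 d, limma adjusted p = 0.0187), and the scaffold Dlg1 (limma adjusted p = 0.0466). Ank3, the scaffold of the axon initial segment, fell to 87.8 ± 13.6 CPM at 1 m, against 129 ± 8.16 CPM at 7 d (log2 difference -0.56, limma adjusted p = 0.00287). Calm2, which encodes calmodulin, an M-channel subunit, fell by 0.52 on the log2 scale (limma adjusted p = 0.0317), and Vapb, a partner of Kv2 channels, fell by 0.40 (limma adjusted p = 0.0238). The glial rectifier Kcnj10 fell by 0.40 (limma adjusted p = 0.0246) and Kcnj13, of the choroid plexus, by 2.14. Without PT 1 m infarcted, Adam22, Dlg1, Calm2, Vapb and Kcnj10 lost their calls, with adjusted p between 0.0605 and 0.123, and all of these but Adam22 also lost them without at least 1 library of another condition.

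No partner gene passed for side or for LEV. The smallest unadjusted p between sides was that of the chloride importer Slc12a2 (36.6 ± 9.72 CPM on the infarcted side and 29.9 ± 5.95 CPM on the non-infarcted side, limma adjusted p = 0.429).

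**Figure D5:**
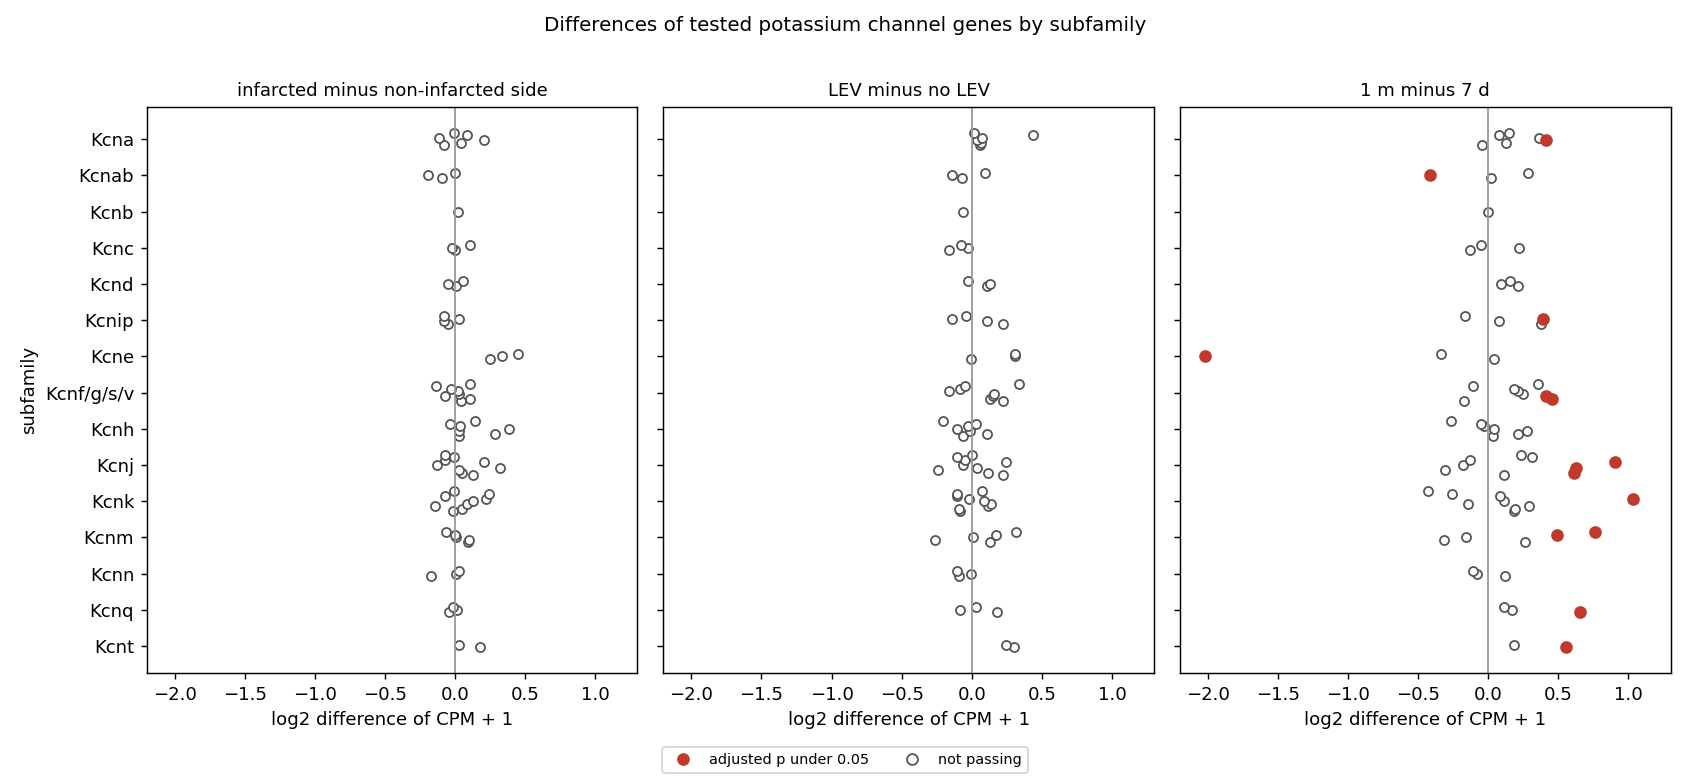
Log2(CPM + 1) difference of tested potassium channel genes by subfamily for infarcted minus non-infarcted side, LEV minus no LEV and 1 m minus 7 d (Kcnu1, Kcnq1ot1 and genes not reported here are not drawn). Filled points passed an adjusted p of 0.05 in limma, which holds for 14 of the genes drawn between 1 m and 7 d and for 0 in the other panels.

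By subfamily, calls between 1 m and 7 d were spread over the classes. The Kcnj genes had 3 of 9 tested called higher, the Kcnm genes 2 of 5, the silent subunits 2 of 8, and Kcna, Kcnip, Kcnk and Kcnt 1 each. The Kcnq genes also held calls, all higher, Kcnq3 included. Kcnab and Kcne had 1 each called lower. Of all tested genes 5.7% were called higher and 10.1% lower. No gene of Kcnb, Kcnc, Kcnd, Kcnh or Kcnn passed, which together had 19 tested genes. Within these, Kcnc2 was among the genes whose groups did not overlap with 1 m higher, and Kcnn2, the main SK channel of hippocampal pyramidal cells, did not overlap with 1 m lower.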

How the data were processed

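CAGE libraries of mouse hippocampus were deposited by the authors as 1 table of CPM per gene and strand. The submitters' processing notes name BWA 0.7.17, HISAT2 2.0.5, DESeq2 1.20.0 and GRCm38, without their roles. How reads were counted and strand used, the annotation release and the treatment of duplicates: not given in the sources used here. Deposited CPM steps gave whole reads for 100% of values (within 0.001 reads), with 13382623 to 22377376 reads per library. Counting floors cover counting error only.

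Genes with a mean of at least 1 CPM over 11 libraries (16057) were tested on log2(CPM + 1) with limma 3.58.1 in R 4.3.3 (trended empirical Bayes, Benjamini-Hochberg adjustment over all tested genes, threshold 0.05). A fold on this scale understates changes of low genes. Sides were compared over 10 libraries with condition as a block. LEV and time were compared on the 4 condition means of 7 d and 1 m, sides averaged first, with 1 residual degree of freedom, and the side difference between times and with LEV on 4 side differences. Comparisons with naive have no test, and a log2 of 1 on both sides was the mark. edgeR 4.0.16 and DESeq2 1.42.0 on the recovered reads, TMM and quantile scaling, other pseudocounts, no filter and leaving out each library were alternatives. The fits were tested on simulated data.

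Gene positions are those of GENCODE M21 (GRCm38), matched by gene ID for all 83 members, 77 of them also by version. Named genes were the called members, up to 5 members per direction and comparison with the smallest p among those of at least 5 CPM with the same sign in every matched pair, the highest member of each subfamily, members past a log2 of 1, Kcnab2 and the lists. Kcna4, Kcna5, Kcnc2, Kcne4, Kcnj14, Kcnmb2, Kcnq5 and members named for not overlapping or for opposite LEV differences were added after their values were seen. The members and lists were chosen with earlier results of these data known. Some genes are counted in totals and are not reported here by name.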

Additional observations from a re-analysis of the deposited data

Results flagged for a closer look

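With LEV, 12 potassium channel genes went one way at 7 d and the other way at 1 m on both sides. The difference between these effects was not tested, since 4 condition means leave no error for it. The LEV difference at 1 m minus that at 7 d was 0.83 for the beta subunit Kcne1l, 0.66 for Kcna6, 0.57 for Kcnmb4, 0.40 for Kcns2 and 0.32 for Kcna1 on the log2(CPM + 1) scale, all lower with LEV at 7 d and higher at 1 m. That pattern held for 6.76% of the members and 6.52% of all tested genes. In the other direction it was -0.67 for Kcnk10, -0.58 for Kcnh4, -0.55 for Kcnq1ot1, -0.40 for Kcnc1, -0.35 for Kcnk4, -0.32 for Kcnh5 and -0.23 for Kcnj9, a pattern held by 9.46% of the members and 9.85% of all tested genes. Neither share sets the members apart from all genes. Kcnmb4, the one of these 12 called between 1 m and 7 d, had a mean LEV difference of 0.46 at 1 m and -0.11 at 7 d.

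Kcnj16 was at 17.2 CPM in PT 7 d LEV non-infarcted, against 20.3 to 20.9 CPM in the other 3 libraries of 7 d, a gap that is large only against the narrow spread of those 3. The limit used for such gaps is a 95% critical value, which by its definition chance passes in about 1 in 20 groups.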

How the results depend on the processing

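The labels give 1 library per group and no replicate numbers, so libraries could be paired by their labelled condition only, as was done for the sides. Without that pairing 0 genes were called between the sides. Of single-gene values, 772 kept their direction and side of the threshold, 119 lost a call, 9 gained one and 0 reversed. Between the sides, DESeq2 called 15 genes and 1 member, and leaving out 1 library pair gave 0 to 29 genes. For LEV, against 3 genes, a pseudocount of 0.5 gave 11, while a pseudocount of 5, no filter, TMM, quantile scaling, no trend and edgeR gave 0. DESeq2, all 8 libraries fitted singly and leaving out both libraries low in choroid plexus markers gave 1, and leaving out 1 library gave 0 to 56 genes. For time, against 2534 genes and 15 members, no filter gave 19 and 1, TMM 308 and 4, and 8 single libraries 5005 and 29. edgeR gave 907 genes and DESeq2 824. Leaving out 1 library gave 1108 to 2390 genes and 7 to 15 members. Without both libraries low in choroid plexus markers 1786 genes and 11 members were called. Kcna3, Kcnab2, Kcng2 and Kcnip3 lost their calls there. The members' median for time was 0.17 with TMM, 0.18 with quantile scaling, 0.20 in edgeR, 0.21 in DESeq2 and 0.12 to 0.17 without 1 library. The side difference between times had 1 gene with quantile scaling. That with LEV had 0 genes with no filter or no trend, 45 with TMM and 60 with quantile scaling, against 29. Members past the mark against naive, at a log2 of 0.5, numbered 14 at 7 d, 8 at 7 d LEV, 1 at 1 m, 5 at 1 m LEV, 14 at 2 m and 13 for 2 m against 1 m LEV. A pseudocount of 5 gave 1 at 7 d, and a pseudocount of 0.5 gave 1 at 1 m. On the infarcted side alone 1 passed at 1 m and 6 for 2 m against 1 m LEV. On the non-infarcted side alone 1 passed at 1 m LEV, 5 at 2 m and 1 for 2 m against 1 m LEV, and TMM gave 3 for that comparison. Where no construction of an alternative shows it, the cause was not tested. Members under 3 reads, worth 0.134 to 0.224 CPM, could not be told from 0 at this depth.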
